A study of Mus musculus with 4 samples.

Results

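Cells that carried RNA of Il1rl1 together with genes of the type 1 program were examined among adipose regulatory T cells. They numbered 530 of 20492 barcodes, and of 16895 cells that met every condition of the rule other than the gene counts. Members were chosen by their raw counts of unique molecular identifiers (UMIs, 1 per captured RNA molecule). A member had at least 500 detected genes, under 10% mitochondrial RNA, one condition hashtag at 90% or more of at least 10 hashtag counts, no UMI of Cd79a, Lyz2 or Cd8a, at least 1 UMI of Il1rl1, and UMIs of at least 2 of Ccl5, Nkg7, Tbx21 and Ifng. They are called double-positive cells here. They were set beside 7637 Il1rl1-positive cells with none of the 4 genes (ST2-only cells), 1282 Il1rl1-positive cells with exactly 1, and 1642 cells with 2 or more of the 4 genes and no Il1rl1 UMI (type 1 cells lacking Il1rl1).

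Regulatory T (Treg) cells restrain immune responses and are maintained by the transcription factor Foxp3. In visceral fat many of them display ST2, the receptor for interleukin-33 encoded by Il1rl1, depend on the lipid-sensing factor PPARγ, and are known for local repair and metabolic functions. The type 1 program is led by T-bet, the product of Tbx21, and includes interferon-γ (Ifng), the chemokine Ccl5, the granule protein Nkg7 and the chemokine receptor Cxcr3.

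The cells came from male mice and were sorted as live CD3+ CD4+ Foxp3+ cells. In the Srebf2 pool, all mice were 25 weeks old and carried Foxp3YFP-cre, a Cre recombinase active in cells that express Foxp3. 4 of them had intact Srebf2 (Srebf2WT/WT, here WT) and 4 had floxed Srebf2 (Srebf2flox/flox, here KO), so that the gene is targeted in the Treg lineage and not elsewhere. Srebf2 encodes SREBP2, which drives genes of cholesterol synthesis. In the diet pool, all mice carried Foxp3thy1.1 and PpargTdt reporters, were 23 to 27 weeks old and ate normal chow (NCD, 5 mice) or a high-fat diet (HFD, 5 mice) for 22 weeks. Cells of the mice of each condition shared 1 hashtag, an oligonucleotide carried by an antibody, and the conditions of a pool were mixed before 5′ droplet sequencing.

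Because every assignment of a cell to a condition rests on these oligonucleotides, and because droplets that carry a pair of them serve as a reference for droplets with 2 cells, their sequences are given 5′ to 3′.
WT, hashtag 1: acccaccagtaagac
KO, hashtag 2: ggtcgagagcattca
NCD, hashtag 3: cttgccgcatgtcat
HFD, hashtag 4: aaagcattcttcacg
Each condition is 1 sample, so no difference between conditions or classes was tested. Intervals are exact 95% intervals that cover counting error only. Levels are counts per 1000000 UMIs (CPM) of the summed UMIs of a class, and a gene counts as higher or lower at 1.5-fold or more and 20 CPM or more in the higher class. Since the members were picked by their counts, their differences from the other classes are descriptions.

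The Srebf2 pool held 9036 barcodes with 37308613 UMIs and the diet pool 11456 barcodes with 53275205 UMIs. The pools shared 135 barcode sequences, 8 of them on a member, and no barcode was a member in both. Among Treg markers, a Foxp3 UMI was seen in 55.4%, 61.4%, 63.5% and 75.8% of double-positive cells from WT, KO, NCD and HFD. In ST2-only cells these shares were 58.9%, 61.2%, 56.3% and 52.2%. Foxp3 levels were 205, 205, 196 and 198 CPM in double-positive cells of WT, KO, NCD and HFD, against 272, 286, 216 and 215 CPM in ST2-only cells. Ikzf2, which encodes the Treg factor Helios, was at 902, 870, 896 and 1202 CPM in double-positive cells and at 821, 823, 722 and 1013 CPM in ST2-only cells. In HFD the Treg marker Il2ra was lower, at 224 CPM in double-positive cells against 408 CPM in ST2-only cells, a log2 ratio of -0.86. Among cells with RNA of at most 1 antigen receptor β segment (Trbv, described below) the ratio was -0.22 (interval -0.67 to 0.18). Over all cells of these classes in HFD, Ctla4 was at 1105 against 1094 CPM, and Tnfrsf18 at 587 against 604 CPM. Of the 4 selection genes, Ccl5 was detected in 73.5% of the members of WT, 80.1% of KO and 81.3% of NCD, and Nkg7 in 68.7%, 72.9% and 73.1%.

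Double-positive cells made up 83 of 2479 Il1rl1-positive cells in WT (3.35%, interval 2.68 to 4.13) and 166 of 2322 in KO (7.15%, interval 6.13 to 8.27). They made up 219 of 3855 in NCD (5.68%, interval 4.97 to 6.46) and 62 of 793 in HFD (7.82%, interval 6.05 to 9.91). The KO share was 2.14 times the WT share, and their intervals did not overlap. The HFD share was 1.38 times the NCD share, and their intervals overlapped. Among all cells of a condition the order differed, with 2.38% in WT, 166 of 3956 in KO, 4.43% in NCD and 1.37% in HFD, since 17.6% of HFD cells and 78.1% of NCD cells had an Il1rl1 UMI. After every cell was thinned to 2000 UMIs, the shares of Il1rl1-positive cells were 1.60%, 3.03%, 3.01% and 4.32%, with 307, 311, 286 and 711 shallower cells left out. Type 1 cells lacking Il1rl1 were 7.82% of all WT cells and 15.4% of all KO cells, and 7.17% and 8.96% of all NCD and HFD cells, so that in the Srebf2 pool the condition with more of these cells also had the larger double-positive share. Whether the one is tied to the other was not tested.

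The selection genes were also seen where they are not expected. Among cells with Cd79a and at least 3 of 6 B cell markers in all, 2 or more of the 4 type 1 genes were detected in 8 of 95 in WT (8.42%), 6 of 57 in KO (10.5%), 52 of 321 in NCD (16.2%) and 7 of 122 in HFD (5.74%). An Il1rl1 UMI was seen in 35.8%, 21.1%, 45.5% and 14.8% of them. Their median UMIs were 6298, 6639, 7726 and 4455.5, against 3756, 3907, 4154 and 3626 in ST2-only cells. Over all B marker cells the intervals were 3.71 to 15.9, 3.96 to 21.5, 12.3 to 20.7 and 2.34 to 11.5, which overlapped the double-positive interval in WT, KO and HFD and lay above it in NCD. Over B marker cells with an Il1rl1 UMI, the denominator that matches the double-positive share, the gene rule was met by 3 of 34 in WT (8.82%, interval 1.86 to 23.7) and 19 of 146 in NCD (13.0%, interval 8.02 to 19.6). It was met by 0 of 12 in KO (upper bound 26.5%) and 0 of 18 in HFD (upper bound 18.5%). These intervals too overlapped the double-positive ones except in NCD, where the B marker cells lay above. The double-positive shares are not read here as a measure of how many ST2 Tregs transcribe type 1 genes.

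**Figure D1:**
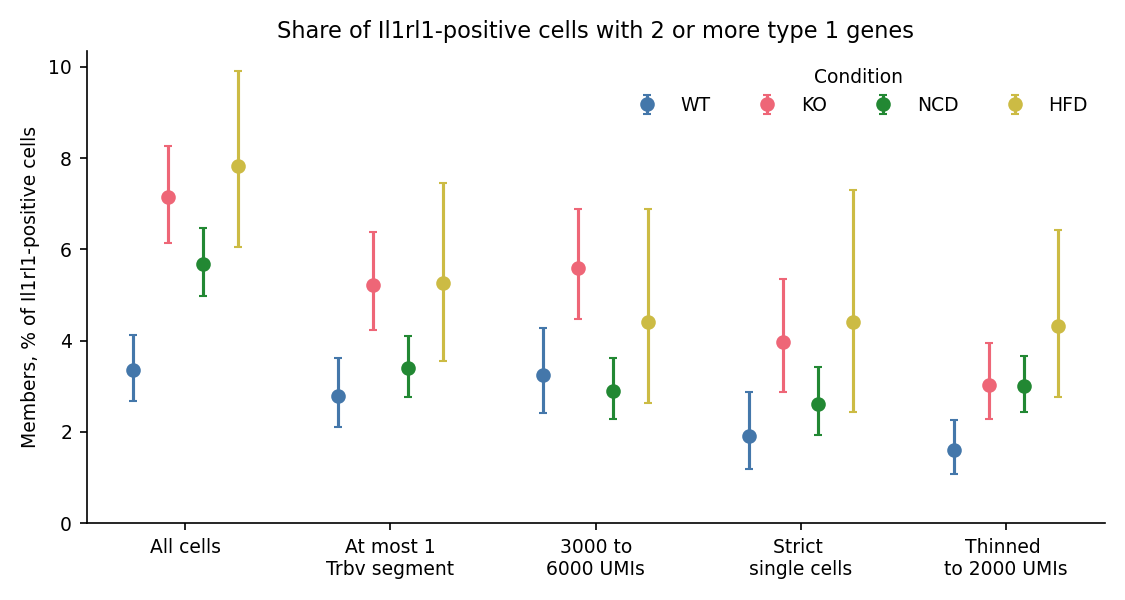
Percent of Il1rl1-positive cells that were double-positive (y axis, from 0) under 5 selections of cells (x axis), by condition. Points are shares and bars exact binomial 95% intervals; with all cells, KO at 7.15% stands above WT at 3.35%, and every selection other than all cells lowers the shares.

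Droplet measures moved with the rule. Median UMIs were 4583, 4866.5, 6195 and 6841.5 in double-positive cells from WT, KO, NCD and HFD, each above the ST2-only median of its condition. Median hashtag counts were 2588 against 1993 in WT, 4509 against 3119 in KO, 772 against 388 in NCD and 728.5 against 422 in HFD. A T cell expresses as a rule 1 rearranged β chain of its antigen receptor, and RNA of 2 or more Trbv segments was seen in 33.7%, 44.6%, 54.3% and 53.2% of double-positive cells from WT, KO, NCD and HFD. The shares in ST2-only cells were 19.5%, 21.7%, 20.1% and 27.0%. Cells just inside and just outside the rule differed in the same way. With exactly 1 of the 4 genes, 24.5% (WT), 27.0% (KO), 33.3% (NCD) and 33.8% (HFD) had 2 or more Trbv segments, and with exactly 2 genes 28.8%, 39.6%, 54.1% and 45.0% did. With all 4 genes the shares were 70.6% of 17 cells in KO, 68.0% of 25 in NCD and 77.8% of 9 in HFD, but 33.3% of 9 in WT. Within a window of 3000 to 6000 UMIs, which brings the depths of the classes together, 26.5% of 49 double-positive cells of WT, 35.4% of 82 of KO, 28.0% of 75 of NCD and 27.8% of 18 of HFD had 2 or more Trbv segments. ST2-only cells in that window had 19.8%, 20.2%, 17.5% and 22.3%.

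**Figure D2:**
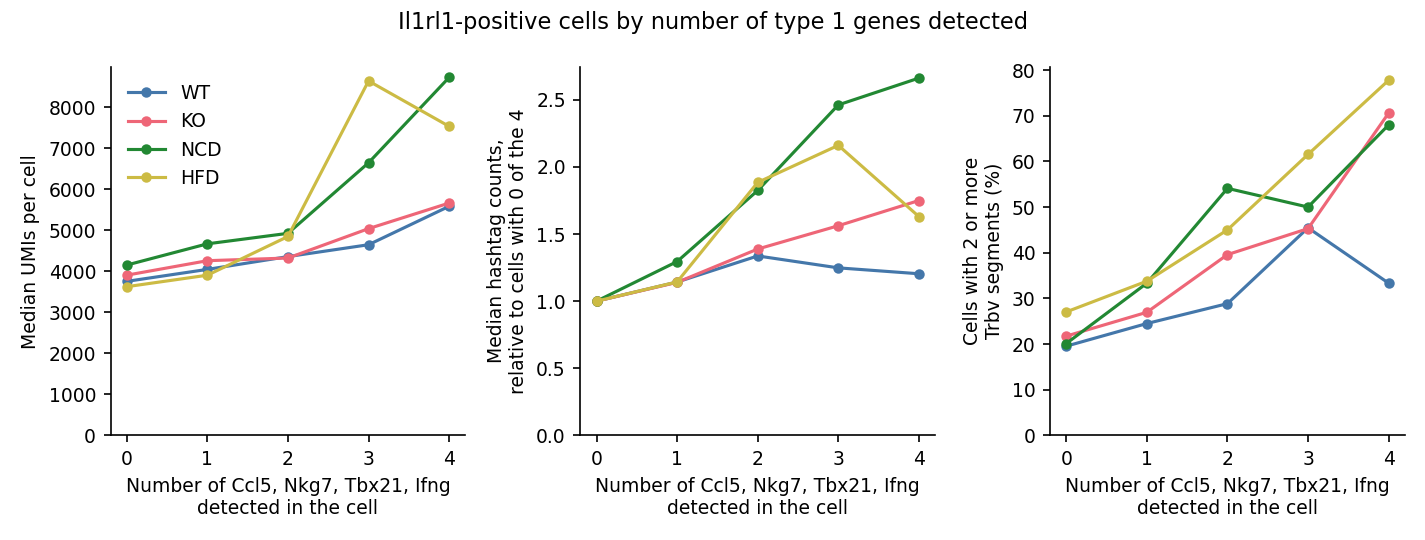
Il1rl1-positive cells grouped by how many of Ccl5, Nkg7, Tbx21 and Ifng were detected (x axes), with median UMIs, median hashtag counts relative to cells with 0 of the 4, and the percent of cells with UMIs of 2 or more Trbv segments (y axes, from 0). Lines are the 4 conditions; in KO the last measure goes from 21.7% at 0 genes to 70.6% at 4.

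Droplets that carried both hashtags of a pool, with the leading one under 80%, hold RNA or label of both conditions. In the Srebf2 pool 87 of 419 such droplets with an Il1rl1 UMI met the gene rule (20.8%, interval 16.98 to 24.97), and in the diet pool 48 of 380 did (12.6%, interval 9.46 to 16.4). Both shares lay above those of the single-hashtag cells of the same pool. Of these droplets, 74.7% and 87.5% had 2 or more Trbv segments, and their median UMIs were 8334 and 8378.5. Beside the 87 and 48 mixed droplets, the members with a single hashtag numbered 249 in the Srebf2 pool and 281 in the diet pool. Cells of one condition share a hashtag, so droplets with 2 cells of that condition go unmarked, and how many members these are was not tested. Double-positive cells with at most 1 Trbv segment numbered 55 for WT, 92 for KO, 100 for NCD and 29 for HFD. Their shares of Il1rl1-positive cells with at most 1 segment were 2.80%, 5.23%, 3.39% and 5.25%. By these measures the label of co-expression in single Treg cells is not settled for the members as a whole, and values for the cells with at most 1 segment stand beside some of the results below.

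Across genes, the level in double-positive cells was compared with both classes whose genes they share. Genes that differed 2-fold or more between ST2-only cells and type 1 cells lacking Il1rl1 were placed on a scale from 0, the ST2-only level, to 1, the type 1 level. The median position of the members was 0.596 over 399 genes in WT, 0.548 over 392 in KO, 0.534 over 521 in NCD and 0.635 over 327 in HFD. Members lay between both levels for 82.7%, 87.0%, 94.4% and 77.7% of these genes. Members with at most 1 Trbv segment had median positions of 0.635, 0.604, 0.553 and 0.437, and lay between both levels for 71.9%, 77.8%, 86.4% and 52.3% of genes. Among members that also had UMIs and hashtag counts at or below the 75th percentile of their condition (22, 41, 49 and 14 cells), 45.4%, 57.7%, 55.5% and 35.2% of genes lay between both levels. Fewer cells give fewer UMIs behind each gene. The mixed droplets that met the gene rule had medians of 0.430 in the Srebf2 pool and 0.488 in the diet pool, and lay between both levels for 86.5% and 83.9% of genes. Only Birc5, Cdca8 and Cks2, all genes of dividing cells, were at least 1.5-fold above both classes in all of WT, KO and NCD, and no gene was 1.5-fold below both. With at most 1 Trbv segment 7 genes stood above both, Aurkb, Birc5, Ccna2, Cdca8, Gsto1, Hist1h1b and Tpx2, and 1 below, Skap2.

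**Figure D3:**
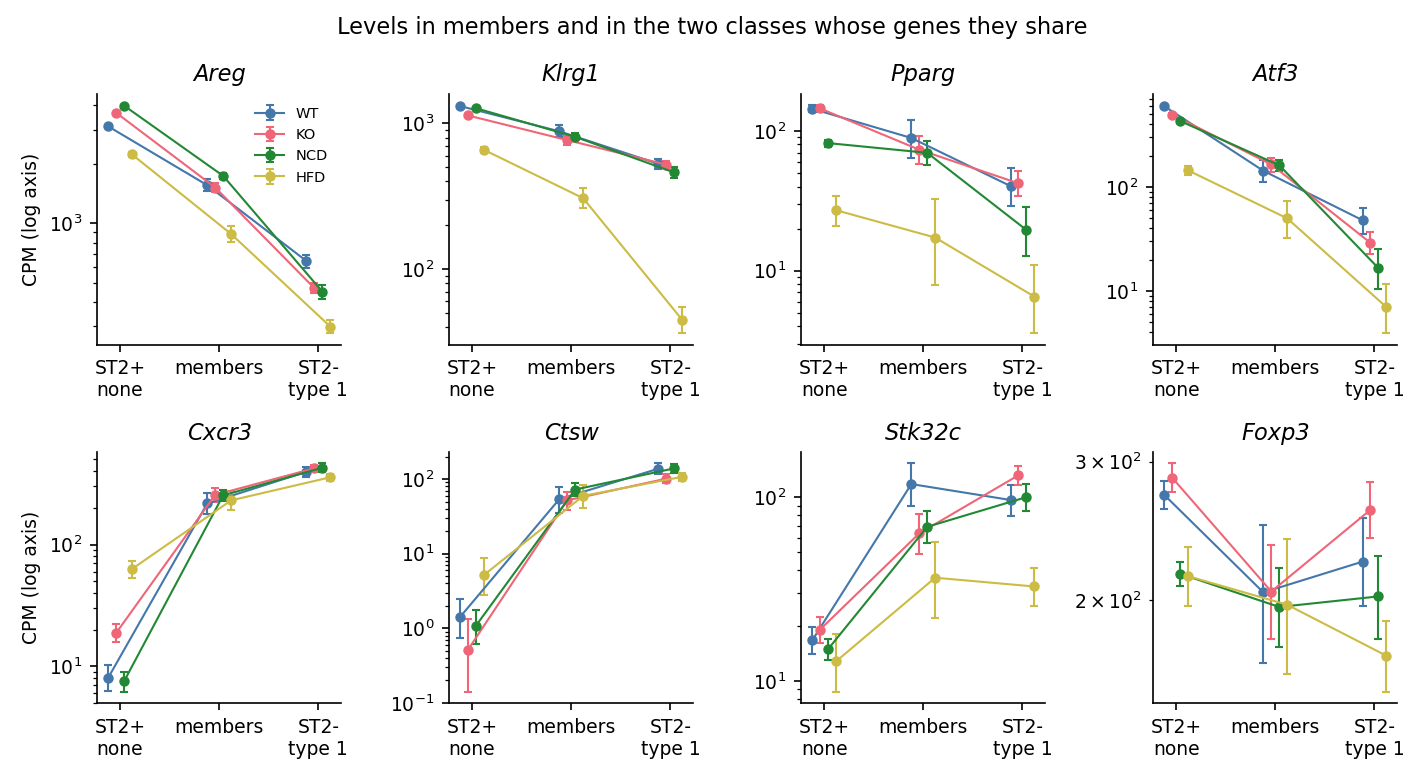
Levels in CPM (log axes) of 8 genes in ST2-only cells, members and type 1 cells lacking Il1rl1, by condition, with exact Poisson 95% intervals. Areg, Klrg1, Pparg and Atf3 step down from ST2-only cells to members and again to type 1 cells, while Cxcr3 and Ctsw step up.

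Against ST2-only cells, Cxcr3 and genes of cytotoxic lymphocytes stood higher. In WT 853 of 6640 genes were 1.5-fold or more higher in members (12.8%) and 472 lower (7.11%), in KO 7.5% were higher and 5.46% lower, in NCD 7.56% higher and 2.94% lower, and in HFD 13.2% higher and 5.8% lower. Of 5914 genes measured in WT, KO and NCD, 86 were higher in each of the 3 and 61 lower, and among cells with at most 1 Trbv segment 67 and 47 of these passed the size rule. Cxcr3, the receptor for interferon-induced chemokines, was at 217, 255, 253 and 230 CPM in double-positive cells from WT, KO, NCD and HFD. ST2-only cells had 8.06, 18.8, 7.54 and 62.9 CPM, and type 1 cells lacking Il1rl1 395, 422, 426 and 356. Cxcr3 was thus higher in members in all 4 conditions and highest in the cells without Il1rl1. Ctsw, a protease gene of cytotoxic lymphocytes, was at 53.8, 51.8, 72.3 and 59.4 CPM in members and at 1.42, 0.518, 1.09 and 5.18 CPM in ST2-only cells. It was detected in 14 of 83, 26 of 166, 54 of 219 and 18 of 62 members.

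Other genes with large ratios came from few cells. Ccl4, a chemokine of activated cytotoxic cells, was detected in 5 of 83 members of WT, and 65.2% of its UMIs there came from 1 cell. It was seen in 11 members of KO, 20 of NCD and 2 of HFD. Ly6c2 was detected in 4, 12, 25 and 4 members, at 70.3, 60.6, 192 and 49.9 CPM. Both were therefore high in a small minority of the members. By contrast, Stk32c, a kinase gene, was detected in 35, 46, 66 and 15 members, at 118, 63.5, 69.0 and 36.4 CPM against 16.6, 19.0, 14.9 and 12.7 CPM in ST2-only cells. The integrin gene Itga1, which marks tissue-resident T cells, was at 62.0, 59.6, 58.9 and 11.5 CPM in members against 7.94, 5.57, 12.4 and 4.78 CPM. In HFD Itga1 lay under the 20 CPM minimum, with 6 against 12 UMIs and a log2 ratio of 1.32 (interval -0.43 to 2.79). P2rx7, an ATP-gated channel, was at 74.5, 54.7, 59.6 and 63.3 CPM in members against 16.9, 15.1, 8.90 and 47.0 CPM, so that its difference was small in HFD. Art2b, which modifies P2rx7 on mouse T cells, was at 29.0, 40.1, 27.5 and 44.1 CPM in members against 6.87, 10.9, 6.04 and 46.2 CPM. In HFD Art2b did not differ by the size rule. Serpina3g, Gas7 and Pclaf were also among the genes with the largest ratios in WT, KO and NCD, and without the 5% of cells with the most UMIs Pclaf, a replication gene, had no UMI in the members of these 3 conditions.

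By list, and with genes counted from 5 CPM, the cytotoxic granule and NK-type receptor genes were higher in members for 10 of 16 measured genes in WT, 7 of 13 in KO, 17 of 22 in NCD and 9 of 16 in HFD, and lower for none. At that minimum 18.2%, 12.7%, 13.1% and 19.4% of all genes were higher and 11%, 8.73%, 4.84% and 10.1% lower. The minimum applies to the higher class, so a gene under 5 CPM in ST2-only cells enters only if higher in members. Such a gene cannot come out lower, which bears on the counts and the median of the cytotoxic list. In HFD members against ST2-only cells, Gzma had 4 against 3 UMIs, Ccl4 4 against 1, Gzmk 5 against 0 and Klrd1 3 against 0. Genes under 5 CPM in members enter lists only if lower there. The list's median log2 ratio was 2.08, 0.74, 4.35 and 2.03, and 1.85 in HFD with genes absent from a class set at their bound. Its summed level, set by abundant genes such as Id2 and Srgn, differed by 0.02, -0.03, 0.02 and -0.05 on the log2 scale. Markers of NK and innate lymphoid cells, none of them on this list, moved with it: their sum was 29.0, 20.5, 154 and 7.67 CPM in members and 3.56, 2.07, 6.72 and 5.18 CPM in ST2-only cells. The CD8 T cell markers, with Cd8a at 0 by the rule, summed to 6.20, 14.7, 41.5 and 44.1 CPM in members and 15.1, 15.1, 9.51 and 10.8 CPM in ST2-only cells. Among the 70, 133, 168 and 41 members without a UMI of any listed marker of another blood or immune cell type, the cytotoxic list's median was 1.11, 0.78, 0.70 and 0.83, so that it was lower in WT, NCD and HFD than over all members. The other type 1 genes were higher for 5 of 18 in WT, 5 of 18 in KO, 10 of 21 in NCD and 3 of 20 in HFD, with median log2 ratios of 0.29, 0.14, 0.34 and 0.19. In HFD that share lay below the 19.4% of all genes. Among them Irf1, an interferon-induced transcription factor, was at 409.5, 315, 251 and 244 CPM in members and 164, 154, 127 and 180 CPM in ST2-only cells. Interferon response genes were higher for 4 of 12 in WT, 3 of 11 in KO, 11 of 16 in NCD and 3 of 14 in HFD. The Treg core list had median log2 ratios of 0.04, 0.04, 0.05 and 0.01, beside 0.08, 0.06, 0.11 and 0.11 over all genes tested.

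Against the same ST2-only cells, several genes of the adipose effector program stood lower. Areg, the repair factor amphiregulin, was at 1566, 1524, 1747 and 884 CPM in members of WT, KO, NCD and HFD against 3123, 3664, 3981 and 2248 CPM. Klrg1, a receptor of terminally differentiated lymphocytes, was at 883, 768, 809 and 307 CPM against 1316, 1134, 1272 and 659 CPM. Areg passed the size rule in all 4 conditions and Klrg1 in NCD and HFD, and both had still lower levels in type 1 cells lacking Il1rl1. Pparg was at 88.9, 73.3, 69.7 and 17.3 CPM in members against 144, 145, 81.8 and 27.1 CPM. Gata3, which drives type 2 genes and Il1rl1, was at 422, 350, 478 and 357 CPM against 551, 527, 666 and 545 CPM. Pparg passed the size rule in WT and KO, and Gata3 in KO and HFD. Il10, an anti-inflammatory cytokine, was at 84.8, 144, 58.3 and 19.2 CPM against 115, 164, 91.7 and 31.9 CPM, in 14, 33, 41 and 4 members.

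Members and ST2-only cells were both chosen by an Il1rl1 UMI. The list of genes of ST2-high adipose Tregs was lower for 11 of 28 in WT, 11 of 28 in KO, 12 of 27 in NCD and 19 of 29 in HFD, with medians of -0.47, -0.41, -0.51 and -0.72. At the 5 CPM minimum used for lists, 11%, 8.73%, 4.84% and 10.1% of all genes were lower. Some genes of the list went the other way. Gzmb, a granule protease also on the cytotoxic side, was at 26.9, 30.3, 46.9 and 30.7 CPM in members against 10.9, 18.4, 8.01 and 4.78 CPM in ST2-only cells, and at 99.4, 127, 135 and 25.2 CPM in type 1 cells lacking Il1rl1. Type 2 and myeloid-directed cytokine genes were lower for 5 of 6, 6 of 6, 4 of 6 and 4 of 5. Il5, the eosinophil growth factor, was at 4.14, 5.87 and 4.69 CPM in members of WT, KO and NCD, from 2, 3 and 5 cells, against 25.5, 30.2 and 23.6 CPM. Csf2 was at 4.14, 7.82 and 22.1 CPM in members of WT, KO and NCD against 24.5, 35.1 and 45.6 CPM, and in NCD the direction turned among cells with at most 1 Trbv segment. Among the lowest genes by the naming rule were also Bace2, Pcsk1, Pxdc1, Calca and Cxcl3.

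Several genes that respond to tissue handling were lower in members than in ST2-only cells. Of 15 dissociation and heat shock genes, 7 were lower in members in WT, KO and NCD and 6 in HFD, with medians of -0.58, -0.57, -0.58 and -0.54. Of all genes from 5 CPM, 11%, 8.73%, 4.84% and 10.1% were lower. Atf3, a stress-induced transcription factor, was at 143, 164, 161 and 49.9 CPM in members, 598, 495, 431 and 144 CPM in ST2-only cells, and 47.8, 29.0, 16.6 and 6.99 CPM in type 1 cells lacking Il1rl1. Fos, an early response gene, was at 1096, 1054, 1160 and 439 CPM in members against 2208, 1861, 2436 and 935 CPM in ST2-only cells. What part handling had in the other differences was not tested.

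**Figure D4:**
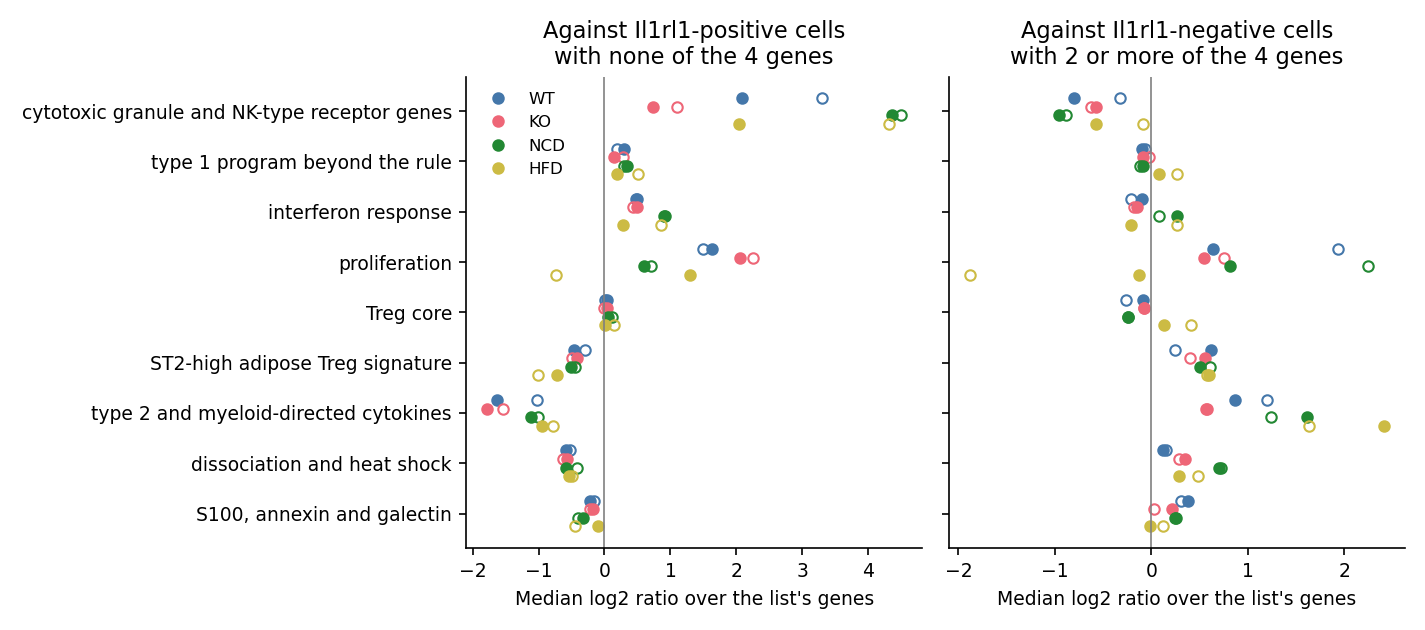
Median log2 ratio over the measured genes of 9 lists (x axes), members against ST2-only cells on the left and against type 1 cells lacking Il1rl1 on the right, by condition. Filled points are all cells and open points cells with at most 1 Trbv segment; the cytotoxic list lies above 0 on the left and below 0 on the right, and the proliferation list in HFD changes side between filled and open points.

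Genes of cell division were then examined. Of 13 proliferation genes, 11 were higher in members than in ST2-only cells of WT, and 13, 7 and 9 in KO, NCD and HFD. Of all genes from 5 CPM, 18.2%, 12.7%, 13.1% and 19.4% were higher. Against type 1 cells lacking Il1rl1, 8, 6, 8 and 3 of the proliferation genes were higher in WT, KO, NCD and HFD, and in HFD 3 were lower. There 15.8%, 9.5%, 8.93% and 16.1% of all genes were higher, and in HFD 11.2% lower. Birc5, a mitotic survival gene, was at 45.5, 64.5, 43.5 and 130 CPM in members, 9.95, 4.79, 12.8 and 37.0 CPM in ST2-only cells and 27.2, 40.8, 16.6 and 89.1 CPM in type 1 cells lacking Il1rl1. These UMIs came from 5, 11, 7 and 6 members, and without the 5% of cells with the most UMIs no Birc5 UMI was left in members of WT and KO. With at most 1 Trbv segment the ratio in HFD was -0.73, from 1 UMI in members. Mki67 was detected in 10.8%, 10.2%, 7.76% and 19.4% of members from WT, KO, NCD and HFD, against 3.95%, 4.93%, 5.25% and 6.93% of ST2-only cells. Cells with 6 or more of the proliferation genes were 5 of 83, 13 of 166, 9 of 219 and 6 of 62 members, and had median UMIs of 14633, 15477, 13037 and 27150. These medians lay above those of all members, and what part depth had in the proliferation values was not tested. Among members of HFD with at most 1 Trbv segment none had 6 or more of these genes, and 7 of 13 proliferation genes were then lower than in ST2-only cells and 1 higher, where 18% of all genes were lower and 31% higher. Cdk1, Ccnb2 and Stmn1 had no UMI in those members.

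Against type 1 cells lacking Il1rl1, several genes of the adipose program stood higher in members. The rule itself separates these classes by an Il1rl1 UMI, so this is a description. How far droplets with more than 1 cell gave these values was not tested. Of 6774 genes in WT, 10.3% were higher in members and 9.86% lower. The shares were 5.52% and 8.14% for KO, 5.15% and 6.35% for NCD, and 9.77% and 6.53% for HFD. The ST2-high list was higher for 15 of 28, 11 of 26, 12 of 26 and 13 of 26 genes. At the 5 CPM minimum used for lists, 15.8%, 9.5%, 8.93% and 16.1% of all genes were higher and 14.8%, 12.6%, 11.4% and 11.2% lower. Ccr1, a chemokine receptor, was at 47.6, 39.1, 42.9 and 13.4 CPM in members against 9.37, 8.78, 9.03 and 0.932 CPM. Igfbp7, a secreted binding protein, was at 51.7, 112, 23.4 and 5.75 CPM against 5.62, 32.5, 8.28 and 3.26 CPM. The cytotoxic list was lower for 14 of 21, 8 of 17, 17 of 24 and 10 of 20 genes, with Ccl4 at 95.1, 62.6, 86.4 and 7.67 CPM in members against 282, 244, 528 and 101 CPM. The selection gene Ccl5 itself was at 945, 1421, 2033 and 1239 CPM in members against 2462, 3849, 4028 and 2374 CPM, and Il1rl1 at 511, 443, 539 and 374 CPM against 976, 944, 1017 and 736 CPM in ST2-only cells. Only 1 Il1rl1 UMI was seen in 38 of 83 members of WT, 84 of 166 of KO, 64 of 219 of NCD and 25 of 62 of HFD.

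The 250 bases before a listed gene start are shown for the ST2 gene and for Nkg7. Of Nkg7, Tbx21 and Ifng, only Nkg7 had a T-box match. Ccl5 had no listed start and was not searched. The windows shown were chosen since GATA and T-box factors stand at the head of both programs. Sequences are from RefSeq (GRCm38.p6), 5′ to 3′ on the gene's strand. Capitals mark AGATAA, a core that GATA factors bind, or GGTGTGA, the core of T-box sites, each searched on both strands. AGATAA or its complement is in 9.99% of 32851 such windows and GGTGTGA in 3.33%. The windows of Tbx21 and Ifng held none of these, nor the AP-1 core TGANTCA or the RUNX core TGTGGTT. Il1rl1 has another listed start, whose window (chr1:40429320-40429569) is not shown and also held 1 AGATAA match. A match is a description of the letters and not a bound site.
Il1rl1, chr1:40439379-40439628, plus strand: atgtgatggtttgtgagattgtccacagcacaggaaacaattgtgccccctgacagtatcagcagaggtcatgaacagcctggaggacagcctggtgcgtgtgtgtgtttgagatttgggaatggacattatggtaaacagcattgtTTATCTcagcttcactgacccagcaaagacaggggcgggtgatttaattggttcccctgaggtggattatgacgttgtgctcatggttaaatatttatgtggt
Nkg7, chr7:43436888-43437137, plus strand: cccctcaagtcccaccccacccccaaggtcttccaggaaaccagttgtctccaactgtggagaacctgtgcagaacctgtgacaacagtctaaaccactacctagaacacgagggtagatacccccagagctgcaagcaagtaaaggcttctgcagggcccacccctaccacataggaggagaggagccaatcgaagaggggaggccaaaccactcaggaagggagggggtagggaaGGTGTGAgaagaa

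Within double-positive cells, KO was set beside WT. 516 of 6695 genes were higher in KO (7.71%) and 751 lower (11.2%), against 0.875% and 0.632% in ST2-only cells, whose sums rest on many more cells. Srebf2 was at 3.91 CPM in members of KO, from 4 cells, and 68.3 CPM in WT, from 28 cells, a log2 ratio of -3.98 (interval -6.08 to -2.63). Of 19 measured cholesterol synthesis genes, 13 were lower in KO and none higher, against 16.4% of all genes lower at the same minimum, with a median of -1.08, or 11 lower and a median of -0.70 among cells with at most 1 Trbv segment, where 20.9% of all genes were lower. In ST2-only cells and in type 1 cells lacking Il1rl1, 12 of 19 were lower, with medians of -0.73 and -0.79, where 2.09% and 8.43% of all genes were lower. Their summed level was 403 CPM in members of KO and 633 CPM in WT, a log2 ratio of -0.65 (interval -0.87 to -0.43). The ratio of the sums in ST2-only cells was -0.67 (interval -0.74 to -0.60). Idi1, an isomerase of the isoprenoid steps, was at 10.8 CPM in KO and 35.2 CPM in WT, and Cyp51, which removes a methyl group from lanosterol, at 12.7 and 41.4 CPM. Sqle, squalene epoxidase, had 1 UMI in KO and 9 in WT.

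**Figure D5:**
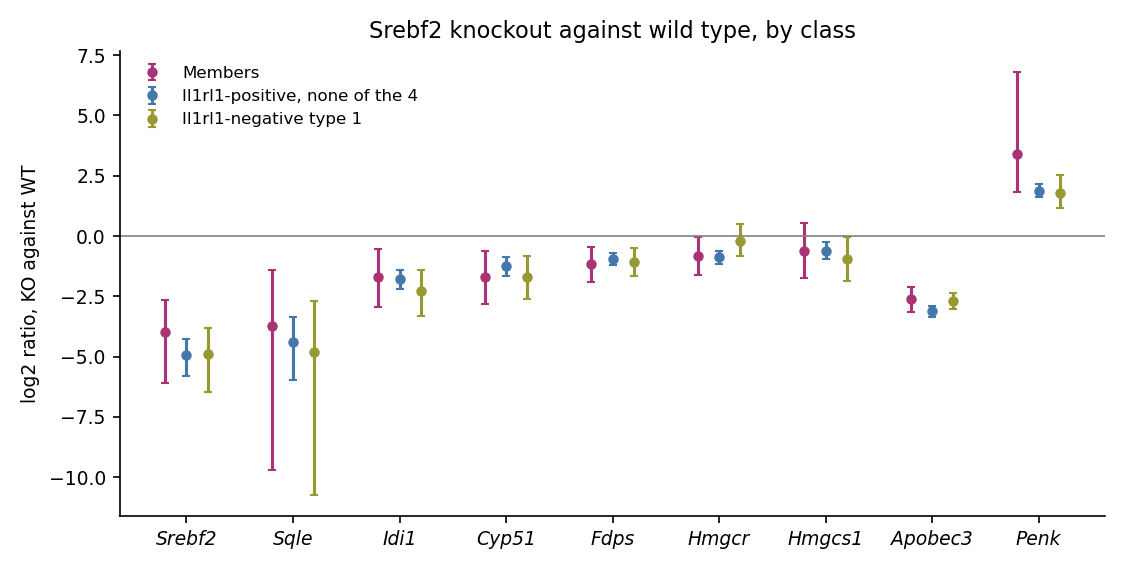
log2 ratio of KO against WT (y axis) for 9 genes in members, ST2-only cells and type 1 cells lacking Il1rl1, with exact 95% intervals of counting error. Srebf2, Sqle, Idi1, Cyp51, Fdps and Apobec3 lie below 0 in all 3 classes and Penk above 0.

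Apobec3, an antiviral cytidine deaminase, was at 40.1 CPM in members of KO and 246 CPM in WT, a log2 ratio of -2.61 (interval -3.17 to -2.10), and had ratios of -3.13 in ST2-only cells and -2.69 in type 1 cells lacking Il1rl1. Apobec3 lies near Srebf2 in the genome, and whether its lower level follows from the loss of Srebf2 was not tested. Penk, the enkephalin precursor, was at 54.7 CPM in KO against 4.14 CPM in WT, a log2 ratio of 3.42 (interval 1.81 to 6.81). It came from 14 cells of KO, 1 of which gave 44.6% of the UMIs, and from 2 UMIs in WT. Plek, an actin-linked signalling protein of blood cells, was at 33.2 CPM in KO, from 14 cells, and at 4.14 CPM in WT. Sytl1, a vesicle docking protein, was at 45.0 CPM in KO, from 41 cells, and at 10.3 CPM in WT. Its ratio of 2.00 (interval 0.79 to 3.81) had no counterpart in ST2-only cells (-0.01) or in type 1 cells lacking Il1rl1 (-0.32), and whether it differs between classes was not tested. Itga9 and Kctd17 were also higher in KO, and Irgm1 and Ypel2 lower, though Ypel2 turned to 1.38 among cells with at most 1 Trbv segment and UMIs and hashtag counts at or below the 75th percentile. Cxcr3 (log2 ratio 0.23), Foxp3 (0.00), Areg (-0.04), Pparg (-0.29), Gata3 (-0.27) and Klrg1 (-0.20) did not reach the size rule, and Il10 had a ratio of 0.75 (interval 0.25 to 1.30) with 33 cells in KO and 14 in WT, which turned to -0.17 among cells with 3000 to 6000 UMIs.

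HFD was then set beside NCD. 961 of 6739 genes were higher in HFD members (14.3%) and 697 lower (10.3%). In ST2-only cells 8.64% were higher and 5.15% lower. Tbc1d4, a regulator of glucose transporter traffic, was at 127 CPM in HFD members, from 19 cells, and at 11.4 CPM in NCD, from 12 cells, a log2 ratio of 3.44 (interval 2.69 to 4.34). Il1r2, the interleukin-1 decoy receptor, was at 72.9 CPM from 11 cells and 4.69 CPM from 6 cells. Both were also higher in HFD in ST2-only cells, by 2.96 and 1.82 on the log2 scale. Among members with 3000 to 6000 UMIs, 18 of HFD and 75 of NCD, Tbc1d4 had 2 UMIs in HFD and 1 in NCD. Il1r2 had 0 in both, so the 2 ratios over all members rest on cells outside that window. Pparg was lower in HFD members by the ratio of -1.94 (interval -3.18 to -1.03), from 6 cells against 60. Klrg1 had -1.40 (interval -1.65 to -1.16) and Areg -0.98 (interval -1.13 to -0.84), although the Areg ratio was 0.02 among cells with 3000 to 6000 UMIs. By the levels given above, Pparg, Klrg1 and Areg were also lower in HFD than in NCD in ST2-only cells. Among the fixed lists, S100, annexin and galectin genes were lower for 10 of 13, the ST2-high list for 17 of 28 and dissociation genes for 9 of 15, against 15.1% of all genes at 5 CPM. Treg core genes were higher for 8 of 15 and TNF receptor family genes for 7 of 13, against 18.7% of all genes.

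RNA of NK cell markers was more abundant in members of NCD than of HFD. For B cell markers the higher level in NCD rested on 1 cell. Jchain, an antibody-linking chain, had 471 UMIs in NCD, 98.9% of them in 1 cell, and 0 in HFD. The B cell marker list was at 323 CPM in NCD members and 21.1 CPM in HFD, and 11.7 and 14.7 CPM in ST2-only cells, with Cd79a at 0 by the rule and Ebf1 at 0 in NCD. Tyrobp and Fcer1g, adaptors of NK and myeloid cells, were detected in 12 and 11 members of NCD and in 1 and 0 of HFD. All 7 NK and innate lymphoid markers had UMIs in NCD members, with a summed level of 154 CPM, whereas HFD members had 7.67 CPM, KO 20.5 CPM and WT 29.0 CPM. Type 1 cells lacking Il1rl1 of NCD had 406 CPM. The macrophage and dendritic list was between 1.92 and 12.7 CPM in members, with Lyz2 at 0 by the rule and Siglech at 0 in all 4 conditions. The red cell list was at 1.92 to 6.84 CPM in members, and at 763 CPM in ST2-only cells of WT and 165 CPM in those of KO. Among members without a UMI of any of these markers, 1315 genes were higher in HFD and 816 lower, and the cytotoxic list's median went from -0.61 to -0.01. The ratios of Tbc1d4 (3.15), Il1r2 (3.65), Pparg (-1.74), Klrg1 (-1.46) and Areg (-0.94) were close to those over all members. Tmem273 was lower in HFD, with 1 UMI in HFD and 68 UMIs spread over 54 cells in NCD. Proliferation genes were higher for 12 of 13 in HFD members, and lower for 9 of 13 among cells with at most 1 Trbv segment, where 31.4% of all genes were higher and 23.5% lower, so that their direction turned with that choice.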

How the data were processed

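Each deposited matrix gives the raw count of UMIs for every gene and barcode, hashtags included, per the file headers. Version 7.1.0 of Cell Ranger stands in the header of the Srebf2 matrix and 7.0.1 in that of the diet matrix, while the submitters' processing notes list 7.0.1 with mm10. Which filters followed cell calling is not given in the sources. Hashtag rows were kept out of the gene sums.

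Raw counts were summed per class and condition with Python 3.11.15, numpy 2.4.6, scipy 1.17.1 and pandas 2.3.3, and log2 ratios were taken with 0.5 counts added to each sum. Exact Poisson intervals go with levels, Clopper-Pearson intervals with shares, and intervals of ratios come from the binomial split of the summed UMIs. Each condition pooled 4 or 5 mice under 1 hashtag and counts as 1 sample, so no test was made and no p-value is given. Genes with 0 UMIs in a class were set at 3 counts where a bound is given. No doublet caller was run; droplets with both hashtags were removed, and pairs within a condition were described by Trbv segments, UMIs and hashtag counts. The ratios and their intervals were checked on simulated Poisson counts with known changes and no spread between cells. Such a check does not cover genes whose UMIs come from few cells.

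The members and gene lists were chosen with earlier results of these data known. Against ST2-only cells, the named genes were the 12 highest and 12 lowest by the smallest absolute log2 ratio over WT, KO and NCD. Against type 1 cells lacking Il1rl1 they were the 6 highest and 6 lowest, and between conditions the 8 highest and 8 lowest with 30 or more UMIs. Up to 4 genes per list and a set of fixed genes were added, and several were left out of the text. Rule genes, antigen receptor, immunoglobulin, mitochondrial and ribosomal protein genes were left out of the counts. Fos, Irf1, Mki67 and Ikzf2 were named after their values were seen where that rule did not take them.
Alternatives changed hashtag purity, depth, the gene rule, the size rule and the summary over cells. Leaving out cells with 2 or more Trbv segments, the stricter selection of single cells and the UMI window for shares were chosen after seeing the data. Some results are not reported here.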

Additional observations from a re-analysis of the deposited data

How the results depend on the processing

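Each condition is 1 sample, so no replicate could be left out. No paired analysis was possible because no group has more than 1 sample. Within each pool the order of the shares held under all 11 alternatives run: the KO share was 1.72 to 2.41 times the WT share, and the HFD share 1.10 to 1.74 times the NCD share. Between pools the order changed, as the KO share passed the HFD share with 3 or more of the 4 genes and with 3000 to 6000 UMIs. The levels of the shares moved. For WT, KO and NCD they were 2.38%, 4.75% and 4.73% with 2 or more Il1rl1 UMIs, and 2.66%, 5.90% and 4.90% without Ifng in the rule. For WT, KO, NCD and HFD they were 1.251%, 3.02%, 2.52% and 2.77% with 3 or more of the 4 genes, 1.60%, 3.03%, 3.01% and 4.32% after thinning, and 1.90%, 3.97%, 2.60% and 4.42% in the strict selection (at most 1 Trbv segment, UMIs and hashtag counts up to the 75th percentile). For KO, NCD and HFD they were 5.58%, 2.90% and 4.41% with 3000 to 6000 UMIs, and 5.23%, 3.39% and 5.25% without cells with 2 or more Trbv segments. NCD came to 4.63% without the cells with the most UMIs, and HFD to 10.9% with a Foxp3 UMI required. Genes higher and lower than in ST2-only cells in all of WT, KO and NCD numbered 254 and 177 at the lower fold, 34 and 11 at 2-fold, and 234 and 104 from 5 CPM, and the higher ones 147 in the UMI window and 179 in the strict selection. Genes higher and lower in KO against WT numbered 1269 and 1583 at the lower fold, 149 and 217 at 2-fold, 1207 and 1624 from 5 CPM, 1024 and 1639 with 3 or more genes, 1106 and 1309 in the window, 967 and 1127 without 2 or more Trbv segments, and 1788 and 2109 in the strict selection. The higher ones numbered 806 without the cells with the most UMIs, 850 with Foxp3 and 861 with 2 or more Il1rl1 UMIs. For HFD against NCD the counts were 1908 and 1392 at the lower fold, 374 and 263 at 2-fold, 1889 and 1525 from 5 CPM, 1526 and 1114 with 3 or more genes, 2404 and 1240 in the window, 1845 and 1317 without 2 or more Trbv segments, and 3455 and 1583 in the strict selection. Settings that keep fewer cells have fewer UMIs behind each ratio. No ratio is given where both sums held 3 UMIs or fewer or one was 0, nor a list's median where most of its genes had 3 UMIs or fewer in both classes; 148 ratios and 4 medians were left out for this. Of the ratios with a value, against ST2-only cells Birc5 turned in HFD (-0.73) and Csf2 in NCD (0.13) without 2 or more Trbv segments, and Csf2 in NCD in the window (0.0649). The strict selection turned Csf2 in KO (0.34) and NCD (1.28) and Il10 in NCD (0.28). In KO against WT, Il10 was at -0.32 without the cells with the most UMIs, -0.17 in the window, -0.0176 by the mean of per-cell CPM and -1.49 in the strict selection, where Ypel2 was at 1.38. In HFD against NCD, Hist1h1d was at -0.28 without the cells with the most UMIs, and Areg at 0.0185 in the window and 0.44 in the strict selection. The cytotoxic list's median in HFD against NCD was 0.0514 without the cells with the most UMIs and 0.24 in the window. The cause of these turns was not tested.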
